A study of Sus scrofa with 10 samples.

Results

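NR2F1 and NR2F2, which encode the nuclear receptors COUP-TF1 and COUP-TF2, were followed through every cell class of the developing and adult porcine medial entorhinal cortex (MEC). These 2 of the 22452 genes in the count tables were chosen by name, and their levels are described in all 10 single-cell and single-nucleus RNA-seq libraries and in 14 cell classes defined by marker genes. Both genes were found in the files. NR2F1 was highest in the intermediate progenitor (IP)-like cells in each of the 5 libraries that held enough of them. It was lower in interneuron-like than in excitatory-like cells of the same libraries, a call close to the threshold that many alternative runs lost. NR2F2 was highest in the mural-like cells of blood vessels, in fibroblast-like cells and in Cajal-Retzius-like cells, and among the interneurons it was high in the subcluster named by caudal markers and low in those marked by LHX6.

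COUP-TFs are orphan members of the nuclear receptor family. Each has a zinc finger domain that binds DNA at direct repeats of a short hormone response element and a domain folded like that of a ligand-binding receptor, and they mostly act as repressors, in part by recruiting corepressors of other nuclear receptors and in part by competing with retinoid receptors for binding sites. In the fetal cortex NR2F1 is known for a gradient that is high in the caudal and lateral cortex, where it patterns the cortical areas, and for its role in progenitors of the ventricular zones. NR2F2 is known as a gene of the caudal ganglionic eminence (CGE), from which a large group of cortical interneurons migrates, and, outside the nervous system, for specifying veins by repressing Notch signalling in endothelial cells and for its expression in the mesenchyme and smooth muscle of vessels. Interneurons of the medial ganglionic eminence (MGE) are marked by the homeobox gene LHX6 and mostly lose NR2F2.

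The pigs were crossbred fetuses of both sexes from Danish Landrace/Yorkshire sows and a Duroc boar, and adult pigs. The sources used here name no engineered allele and no treatment for them. For the adults the paper's methods give sows killed for another study and its results give a postnatal day, so their age is not certain. Whole cells, dissociated with papain, were captured at embryonic day 50 (E50), in 1 library (E50_1, 3 pooled brains per the labels), at E60 in 3 libraries (E60_1 and E60_2 of 1 brain each, E60_3 of 2), at E70 in 3 libraries (E70_1 of 2 brains, E70_2 and E70_3 of 1 each) and from the adult in 1 library (Adult_1). Nuclei, isolated from snap-frozen tissue and sorted on a DNA dye, were captured in 1 library at E70 (E70_nc) and 1 from the adult (Adult_nc). All libraries used the version 2 chemistry of 10x Genomics, which counts unique molecular identifiers (UMIs) from the 3′ end of transcripts. Numbers of brains are those of the labels, whereas the study's sample table gives 1 for E70_1 and 2 for E70_3. Replicate libraries existed for whole cells of E60 and of E70 alone. Whether fetuses of 1 stage were littermates is not given in the sources used here, so p-values speak only for these libraries. In the stage comparisons they measure the spread between libraries. In the class and subtype comparisons differences between libraries were fitted, with library as a block. The p-values there measure the spread left among sums of class and library, pooled over all classes or subtypes of the fit.

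In the pig genome Sscrofa11.1, NR2F1 lies on the plus strand of chromosome 2 from 100447661 to 100457510, a span of 9850 bases with 2 annotated transcripts, and no annotated gene overlaps it. NR2F2 lies on the minus strand of chromosome 7 from 83076119 to 83090250, a span of 14132 bases with 3 annotated transcripts. The non-coding gene LOC102160410 runs on the opposite strand over 6017 bases at the 5′ end of NR2F2. How strand was used in counting is not given in the sources used here, so UMIs of this overlap cannot be assigned to either gene for certain. Positions and transcripts given here are those of RefSeq, while the paper used the Ensembl annotation, so the ends of transcripts may differ between them. The longest annotated proteins have 422 residues (NR2F1) and 414 residues (NR2F2), and 365 of 409 aligned residues (89.2%) are identical.

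Since the proteins are so alike, reads of the 2 genes could be confused, and the sequences were compared at the length of the reads, 57 bases. Of 3822 distinct windows of 57 bases in the NR2F1 transcripts and 4204 in those of NR2F2, 3 were shared. They lie in a single run of 59 identical bases, which is coding in both genes, at chr2:100448141-100448199 and chr7:83083979-83084037, at least 1258 and 2171 bases from the 3′ ends of the transcripts that hold it. It is printed because it is the only stretch of the annotated transcripts in which a whole read could come from either gene. Nearer the 3′ end the coding sequences differ at many synonymous positions, as in the window of 51 bases at chr2:100456646-100456696 and chr7:83078708-83078758, which ends at the stop codon of NR2F2 and 6 bases before the end of the coding sequence of NR2F1. It is shown because it is coding sequence nearer the 3′ side, from which reads come. The annotated transcripts run on past it, to 100456987 or 100457510 for NR2F1 and to 83077504 or 83076119 for NR2F2. Where the reads of either gene fall was not examined. The 11 capitals mark the bases that differ, and all sequences are 5′ to 3′ on the strand of the gene.
shared run: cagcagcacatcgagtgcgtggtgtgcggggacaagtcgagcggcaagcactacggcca
NR2F1, end of coding sequence: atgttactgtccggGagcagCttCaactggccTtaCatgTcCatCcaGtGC
NR2F2, end of coding sequence: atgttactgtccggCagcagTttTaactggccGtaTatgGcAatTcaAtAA

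The libraries held 493 to 8171 cells and 2336865 to 55755512 UMIs, with a median of 690 UMIs per nucleus in Adult_nc, 2616 in E70_nc and 4251 to 9403 per cell in the whole-cell libraries. Cells were clustered without NR2F1, NR2F2 or any marker among the variable genes, and a cluster was named only from marker lists, so each class is called like its type. In 12 of the 14 classes all detected markers were higher in the class than in the other cells, and the exceptions were 1 marker each in the IP-like (NHLH1) and Cajal-Retzius-like (EBF1) cells. The same markers gave the names in the same cells, so this outcome was nearly fixed and is no independent check of them. A total of 8243 cells (29.2%) stayed unnamed, from 5.49% in E60_3 to 71.9% in Adult_nc. E60_1 and E60_2 stood apart, as they held 0 excitatory-like and 0 interneuron-like cells, and E50_1 and E60_1 held Purkinje-like and granule-like cells, which the cortex should lack, as E50_1, E70_1 and E70_3 held photoreceptor-like cells. Between libraries 449 cell barcodes were shared, borne by 901 of the 28229 cells. Results are therefore also given without E60_1 and E60_2.

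Over whole libraries both genes were expressed in all 10. NR2F1 had 35926 UMIs in all and reached 108 CPM (its UMIs per 1e6 UMIs of all genes) in E50_1, 107, 69.2 and 459 CPM in E60_1 to E60_3, 129.7, 82.1 and 303 CPM in E70_1 to E70_3, 46.3 CPM in E70_nc, 52.3 CPM in Adult_1 and 12.8 CPM in Adult_nc. NR2F2 had 11465 UMIs and reached 54.1 CPM in E50_1, 44.3, 42.1 and 109 CPM at E60, 51.0, 17.3 and 54.9 CPM at E70, 40.8 CPM in E70_nc, 30.4 CPM in Adult_1 and 7.27 CPM in Adult_nc. E60_3 and E70_3 were thus the highest libraries for NR2F1, and E60_3 was the highest for NR2F2. The adult nuclei were the lowest for both genes, on only 30 and 17 UMIs. The libraries differ in which cells they hold, and fewer cells of a type and less RNA per cell cannot be told apart in such sums, so the levels are given next by class, as the CPM of the summed UMIs of a class in a library with at least 20 of its cells.

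IP-like cells, the dividing daughters of radial glia that produce excitatory neurons and are marked by EOMES and NEUROD4, held the most NR2F1. Their level was 319 CPM in E50_1, 737 in E60_3, 278 in E70_1, 151 in E70_2 and 544 in E70_3. In each of these 5 libraries this was the first rank among the classes, although in E70_2, with 49 UMIs, its counting interval overlapped that of the astrocyte and radial glia-like cells. Excitatory-like cells reached 132, 557, 205, 90.0 and 332 CPM in the same libraries, 81.5 CPM in E70_nc and 189 CPM in Adult_nc, where it rested on 5 UMIs in 35 nuclei (95% exact Poisson interval 61.4 to 441, which covers counting error only, as do all intervals here). In both classes E60_3 was the highest of these libraries, E70_3 the next and E70_2 the lowest whole-cell library. IP-like cells were higher than excitatory-like cells in 5 of 5 libraries, but the difference of 0.63 ± 0.34 (log2, SE) did not pass the test (edgeR quasi-likelihood with Benjamini-Hochberg adjustment, adjusted p = 0.213), in a comparison that called 19.1% of all genes tested. For NR2F2 the classes differed by -0.09 ± 0.34 (adjusted p = 0.910), with IP-like cells higher in 2 of 5 libraries.

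**Figure D1:**
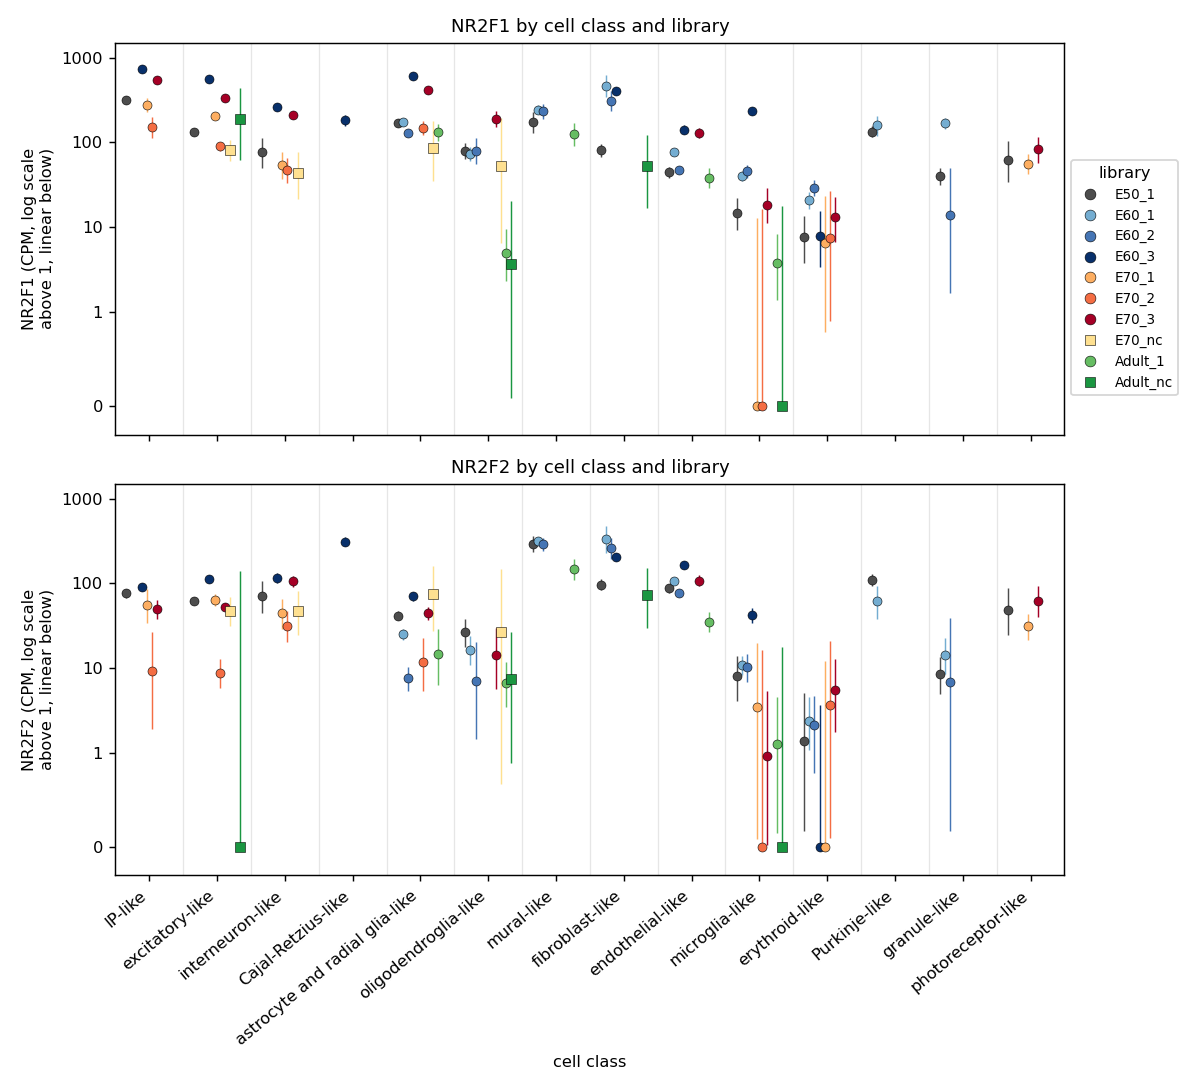
Level of NR2F1 (top) and NR2F2 (bottom) in each marker-defined class, in CPM on an axis that is logarithmic above 1 and linear below, with 1 point for each library that held at least 20 cells of the class (circles for whole cells, squares for nuclei) and the exact Poisson 95% interval as a bar. NR2F1 was highest in IP-like cells (151 to 737 CPM in whole cells) and NR2F2 in mural-like cells (149 to 315 CPM), in the fibroblast-like cells of E60_1 (335 CPM from 24 cells) and in the Cajal-Retzius-like cells of E60_3 (310.5 CPM).

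Interneuron-like cells, named by GAD1, GAD2 and DLX genes, had less NR2F1 than excitatory-like cells. Their level was 76.8 CPM in E50_1, 263 in E60_3, 54.6 in E70_1, 47.3 in E70_2, 209 in E70_3 and 43.2 in E70_nc. They were below the excitatory-like cells of the same library in each of the 5 fetal whole-cell libraries with both classes, although the ranges over libraries overlapped. The means were 130.1 ± 99.0 CPM in interneuron-like and 263 ± 188 CPM in excitatory-like cells (SD, n = 5 libraries), and the difference within libraries was -1.20 ± 0.36 (log2; edgeR, adjusted p = 0.0398), or 2.29-fold lower. The comparison called 3.93% of the genes tested, 243 higher and 378 lower in interneurons, and under another scaling (RLE size factors) 300 higher and 297 lower. The call was close to the threshold. It was lost when any of E50_1, E60_3, E70_1, E70_2 or E70_3 was left out (adjusted p 0.0636 to 0.172) and under DESeq2 (adjusted p = 0.0768), and it was kept without E60_1 and E60_2, which hold neither class (-1.20, adjusted p = 0.0268). An exact test over the 5 libraries by sign flips gave p = 0.0625, the smallest that 5 libraries allow.

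NR2F2 showed no such difference in the test. In interneuron-like cells it was 70.7 CPM in E50_1, 116 in E60_3, 44.3 in E70_1, 31.6 in E70_2, 106 in E70_3 and 47.1 in E70_nc, and in excitatory-like cells 61.9, 112, 64.5, 8.85, 53.2 and 47.5 CPM in these libraries. Interneuron-like cells were higher in 4 of the 5 fetal whole-cell libraries, and the difference of 0.31 ± 0.34 (log2) did not pass the test (edgeR, adjusted p = 0.827). Since lengths and 3′ ends of the 2 genes differ, their levels are not set against each other, but the number of NR2F1 UMIs per NR2F2 UMI can be compared between classes. It was 1.97 in interneuron-like, 4.35 in excitatory-like, 6.70 in IP-like and 7.37 in astrocyte and radial glia-like cells over all libraries. Per library it was 1.09 to 2.26 in the interneuron-like cells and 2.14 to 10.2 in the excitatory-like cells of the fetal whole-cell libraries, so the ranges overlapped only at the lowest excitatory-like value, that of E50_1.

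**Figure D2:**
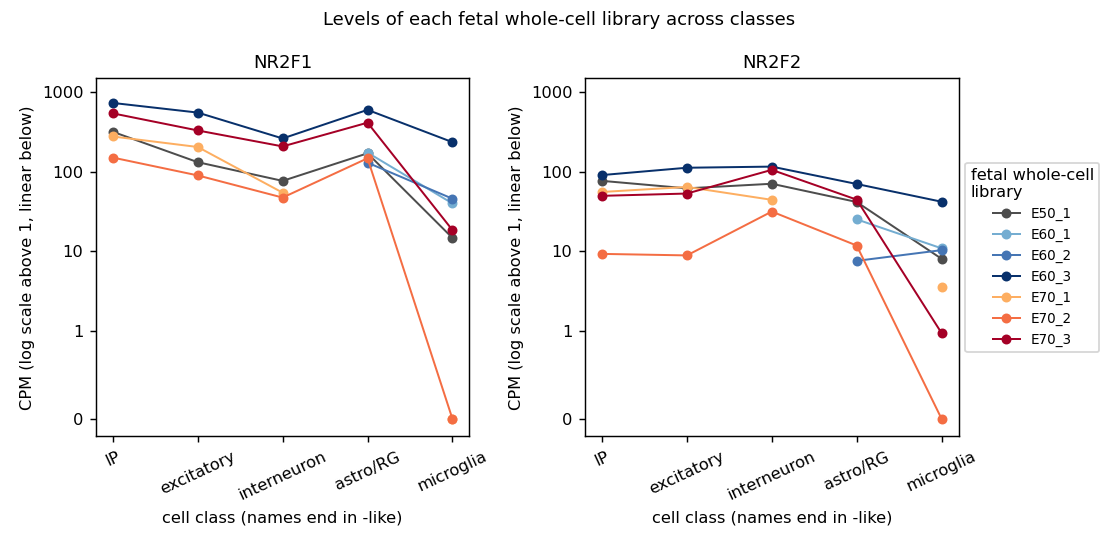
NR2F1 (left) and NR2F2 (right) in CPM, on an axis logarithmic above 1 and linear below, in 5 classes of each fetal whole-cell library, with 1 line for each library that breaks where a class had under 20 cells. In the 5 libraries with these classes NR2F1 falls from IP-like over excitatory-like to interneuron-like cells, with E60_3 and E70_3 above the others, while NR2F2 shows no common order.

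Astrocyte and radial glia-like cells, the progenitor lineage that lines the ventricle and later gives rise to astrocytes, had 171 CPM of NR2F1 in E50_1, 175, 130.3 and 603 CPM in E60_1 to E60_3, 148 CPM in E70_2, 416 CPM in E70_3, 86.6 CPM in E70_nc and 131 CPM in Adult_1. NR2F2 in the same cells was 41.6, 25.2, 7.55, 70.2, 11.8, 44.6, 74.3 and 14.6 CPM. NR2F1 thus ranked 1 to 3 among the classes of each library, while NR2F2 ranked anywhere from 1 to 9. Among the clusters of this class NR2F1 was far from even. With all libraries summed it was 490.6 CPM in the cluster led by SLCO1C1 and ABI3BP and 413 CPM in that led by SLCO1C1 and RYR3, an order that held in E60_3 (718 and 553 CPM) and E70_3 (514 and 424 CPM) and was the other way round in E50_1 (176 and 288 CPM). The 2 largest clusters of the class, led by S100A1 and MFGE8 (1418 cells) and by the cell division genes CCNB1 and PBK (1119 cells), had 220 and 157 CPM. The level was 68.8 CPM in the cluster led by EFNA5, MFAP4 and DBX1, at 10.96 CPM in E50_1, 31.9 CPM in E60_1 and 129 CPM in E60_2. DBX1 is known as a gene of ventral and boundary progenitors, and E50_1, E60_1 and E60_2, the libraries with granule-like cells, held 204, 176 and 310 of the 695 cells of this cluster.

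To place these levels against cells that should lack both genes, each class was compared with the microglia-like cells of the same libraries, immune cells that arise in the yolk sac. NR2F1 in microglia-like cells was 14.7 CPM in E50_1, 39.9, 45.8 and 236 CPM in E60_1 to E60_3, 18.5 CPM in E70_3 and 3.79 CPM in Adult_1, and it had 0 UMIs in E70_1, E70_2 and Adult_nc, which allow levels of up to 10.6, 13.2 and 14.5 CPM. NR2F2 was 8.02 CPM in E50_1, 10.9, 10.3 and 41.97 CPM at E60, 3.52, 0 and 0.972 CPM at E70, 1.26 CPM in Adult_1 and 0 in Adult_nc. E60_3 was far above the other libraries for both genes. NR2F1 was higher than in microglia-like cells by 2.46 ± 0.35 (log2) in excitatory-like cells (edgeR, adjusted p = 2.96e-08, higher in 5 of 5 libraries, with 50.9% of all genes called), by 2.37 ± 0.33 in astrocyte and radial glia-like cells (adjusted p = 2.75e-08, 6 of 6, 46.9% called) and by 1.26 ± 0.36 in interneuron-like cells (adjusted p = 0.00310, 5 of 5, 45.0% called). NR2F2 was higher by 2.496 ± 0.376 in interneuron-like cells (adjusted p = 2.02e-07, 5 of 5), by 2.18 ± 0.36 in excitatory-like cells (adjusted p = 7.35e-07, 5 of 5) and by 1.22 ± 0.34 in astrocyte and radial glia-like cells (adjusted p = 0.00247, higher in 5 of 6 and lower in E60_2). For the last, an exact sign-flip test over the 6 libraries gave p = 0.0625. Without E60_1 and E60_2 all of these differences were as large or larger, 2.63, 2.79 and 1.43 for NR2F1 and 2.58, 2.27 and 1.66 for NR2F2 in the same orders. With so large a share of all genes called, a call against microglia-like cells says little that is particular to these 2 genes. The median of all genes in the excitatory comparison was 0.14, and -0.02 under RLE size factors.

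The level in microglia-like cells was set by 2 of their 8 clusters. In the clusters led by C1QA and CD74, by SPP1 and ACP5, by CTSZ and SLC2A5 and by CCL11 and TNF, NR2F1 was 1.38 to 3.77 CPM and NR2F2 was 1.33 to 2.08 CPM, and the summed level of the astrocyte and radial glia markers was 98.6 to 326 CPM. The microglia-like cluster of 348 cells that came mostly from the adult nuclei had 0 UMIs of either gene, with astrocyte and radial glia markers at 734 CPM, and a cluster of 36 cells led by CD52 and LYZ had 0 and 4.71 CPM. The leading genes of the last include S100A8, S100A9 and S100A12, genes of blood leukocytes, and its C1QB was 23.6 CPM against 955 to 6178 CPM in the other 7 clusters, so its genes go against the name, and 66.7% of its cells came from Adult_1, which the fits of classes left out. In the cluster led by FOLR1 and C1QB (494 cells) NR2F1 was 106 CPM and NR2F2 15.7 CPM, with astrocyte and radial glia markers at 4127 CPM. In the cluster led by CXCL10 and TYROBP (274 cells) they were 201 and 47.4 CPM, with 618 CPM of astrocyte and radial glia markers, 204 CPM of mural markers and 190 CPM of excitatory markers. The 35 cells of this cluster from E60_3 held 474 UMIs of NR2F1 (484 CPM), beside 438 CPM of the collagen gene COL1A2 and 366 CPM of the complement gene C1QB. Markers of other classes thus moved with NR2F1 in these 2 clusters, and their part in its level was not tested. When microglia-like and endothelial-like clusters in which another class's markers summed to over 500 CPM were left out, a choice made after seeing the data, the differences from microglia-like cells rose to 6.19 (excitatory-like), 6.21 (astrocyte and radial glia-like) and 5.06 (interneuron-like) for NR2F1 and to 4.54, 3.64 and 4.90 for NR2F2 (log2). This left out the FOLR1 and CXCL10 clusters, which held 344 and 581 of the 952 NR2F1 UMIs of microglia-like cells. They also held 51 and 137 of the 205 NR2F2 UMIs. A rise was thus bound to follow, and it is no independent result.

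**Figure D3:**
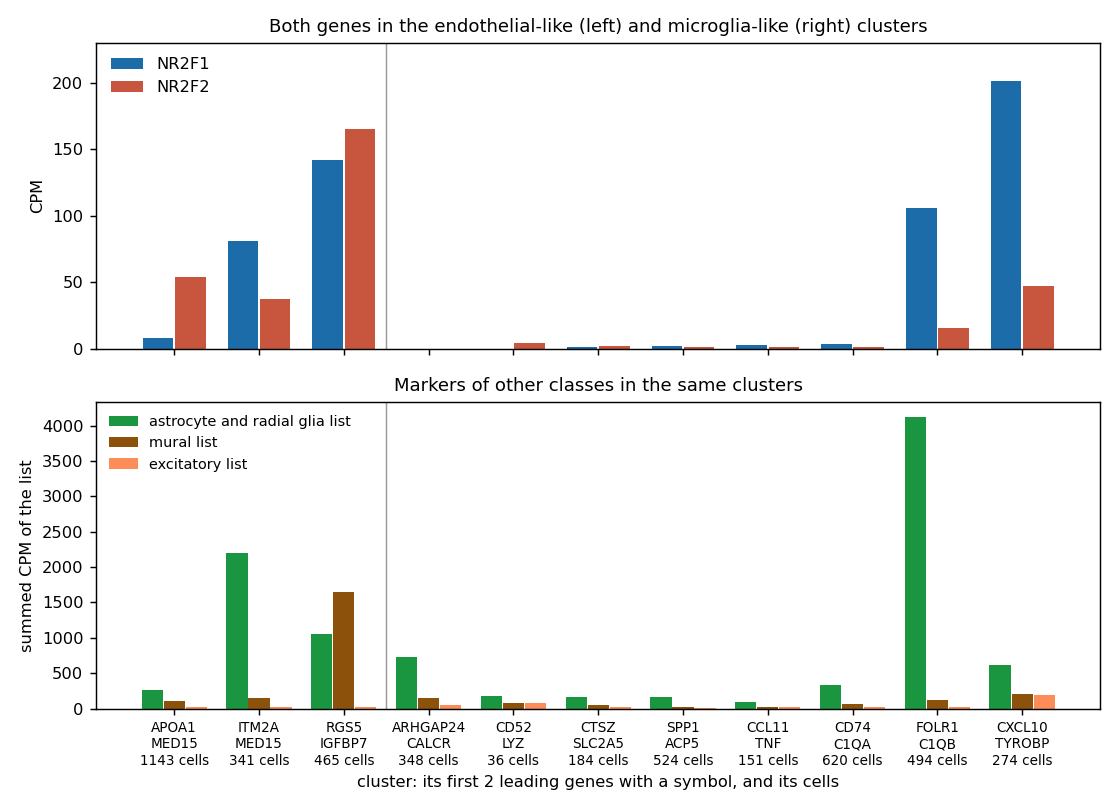
Bars give NR2F1 and NR2F2 in CPM (top) and the summed CPM of the astrocyte and radial glia, mural and excitatory marker lists (bottom) in the 3 endothelial-like clusters, left of the line, and the 8 microglia-like clusters, right of it, all libraries summed. Among the microglia-like clusters NR2F1 was at most 3.77 CPM in 6, and it was 106 and 201 CPM in the 2 at the right, whose astrocyte and radial glia markers summed to 4127 and 618 CPM.

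Oligodendroglia-like cells had 79.6 CPM of NR2F1 in E50_1, 73.4 and 79.9 CPM in E60_1 and E60_2, 190.0 CPM in E70_3 and 53.4 CPM in E70_nc, but 5.03 CPM in Adult_1 and 3.69 CPM in Adult_nc. The 2 adult libraries were below all fetal libraries for NR2F1, with no replicate check of that difference and no share of all genes apart in this way given here. They rest on 9 UMIs in Adult_1 and 1 in Adult_nc, and E70_nc rests on 2. The cluster led by ERMN and APOD, of which 86.9% came from Adult_1, had 5.48 CPM of NR2F1. OPALIN and TF, among its leading genes, are also among those of an unnamed cluster of 1754 cells, 96.7% from Adult_nc. That cluster had 10.6 CPM of NR2F1 on 17 UMIs with all libraries summed, and it is outside the levels of the class. Clusters led by OLIG1 and PCDH15 had 86.4 and 118 CPM, and that led by BCAS1 and GPR17 had 45.4 CPM. In Adult_1 age and cluster thus cannot be told apart. NR2F2 was 26.5, 16.4, 7.05, 14.3 and 26.7 CPM in the fetal and 6.71 and 7.38 CPM in the adult libraries, which overlapped. Against microglia-like cells NR2F1 was higher by 1.09 ± 0.38 (log2; edgeR, adjusted p = 0.0170, higher in 4 of 4 libraries, with 38.1% of genes called), a call lost without E50_1 (0.91, adjusted p = 0.129) or without E70_3 (0.80, adjusted p = 0.152). NR2F2 differed by 0.32 ± 0.45 (adjusted p = 0.624), and by -0.04 without E50_1. Erythroid-like cells, which carry hemoglobin RNA, had 6.54 to 29.2 CPM of NR2F1 and 0 to 5.45 CPM of NR2F2.

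The vascular classes held the highest NR2F2. Mural-like cells, the smooth muscle cells and pericytes named by ACTA2, RGS5 and PDGFRB, had 290.1 CPM in E50_1, 315 CPM in E60_1, 290.0 CPM in E60_2 and 149 CPM in Adult_1, and ranked first in 3 of these 4 libraries and second in the other. NR2F1 in the same cells was 175, 244, 234 and 126 CPM and ranked second in all 4. Over the 3 fetal libraries the NR2F2 level was 298 ± 14.3 CPM (SD) and that of NR2F1 218 ± 37.6 CPM. The difference from microglia-like cells was 4.63 ± 0.39 (log2; edgeR, adjusted p = 3.12e-14) for NR2F2, or 24.8-fold, and 2.52 ± 0.40 (adjusted p = 1.25e-06) for NR2F1, or 5.75-fold, each higher in 3 of 3 libraries in a comparison that called 20.2% of genes. This comparison rests on E60_1 and E60_2, since without them only E50_1 held at least 20 mural-like cells.

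Endothelial-like cells, the inner lining of vessels marked by PECAM1 and CDH5, had 87.1 CPM of NR2F2 in E50_1, 107, 77.8 and 164 CPM in E60_1 to E60_3, 108 CPM in E70_3 and 35.2 CPM in Adult_1. NR2F1 in these cells was 44.2, 77.6, 47.9, 142, 131 and 38.4 CPM. NR2F2 was above the microglia-like cells in 5 of 5 fetal libraries, by 3.07 ± 0.34 (log2; edgeR, adjusted p = 6.74e-11, with 37.3% of genes called), also without E60_1 and E60_2 (3.01, adjusted p = 1.44e-07). NR2F1 was higher in 4 of 5 and lower in E60_3, and its difference of 0.80 ± 0.33 did not pass (adjusted p = 0.0529), but it passed without E60_2 (0.93, adjusted p = 0.0432) and without E60_3 (1.27, adjusted p = 0.00480). The clusters differed more than the class shows. In the largest, led by APOA1 and MED15 (1143 cells), NR2F2 was 55.3, 65.2, 52.3, 88.2, 51.2 and 16.3 CPM in the 6 libraries, while NR2F1 was 4.27 to 32.5 CPM, with 257 CPM of astrocyte and radial glia markers and 109 CPM of mural markers. In the cluster led by RGS5 and IGFBP7 (465 cells), a pericyte gene among them, NR2F2 was 165 CPM and NR2F1 142 CPM, with mural markers at 1655 CPM and astrocyte and radial glia markers at 1060 CPM. In the cluster led by ITM2A (341 cells) NR2F1 was 81.4 CPM and NR2F2 37.8 CPM, with 2204 CPM of astrocyte and radial glia markers. RGS5, HIGD1B and FABP4, leading genes of the RGS5 cluster, also lead the mural-like cluster, and that cluster gave 1711 of the 2618 UMIs of NR2F2 in the class. The part of these other classes in the NR2F1 and NR2F2 levels of endothelial-like cells was not tested. With only the APOA1 cluster kept, and the microglia-like clusters reduced in the same way, the NR2F2 difference was 4.67 (log2; edgeR, adjusted p = 3.69e-12). The APOA1 cluster had less NR2F2 (54.3 CPM) than the RGS5 cluster. The microglia-like clusters left out held most NR2F2 UMIs of their class, so this larger difference is no independent result.

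Fibroblast-like cells, which carry the collagen genes of the meninges and vessel walls, had 96.8 CPM of NR2F2 in E50_1, 335 and 261 CPM in E60_1 and E60_2, 203 CPM in E60_3 and 73.7 CPM in Adult_nc. Their NR2F1 was 81.1, 467, 309.7, 409 and 52.6 CPM. For NR2F2 they ranked first in 2 of these 5 libraries, and the 335 CPM of E60_1 was the highest level of any named class and library. In E60_1 and E60_2 these levels rest on 24 and 22 cells. Cajal-Retzius-like cells, the early RELN-positive neurons of the marginal zone, reached 20 cells only in E60_3, where NR2F2 was 310.5 CPM, the highest class of that library, and NR2F1 was 184 CPM. Their number of NR2F1 UMIs per NR2F2 UMI, 0.544 over all libraries, was the lowest among the named classes set out here, beside 0.718 in endothelial-like, 0.802 in mural-like and 1.57 in fibroblast-like cells. Purkinje-like cells of E50_1 and E60_1 had 134 and 159 CPM of NR2F1 and 110.4 and 61.7 CPM of NR2F2, granule-like cells 13.9 to 168 CPM and 6.96 to 14.4 CPM, and photoreceptor-like cells 56.2 to 82.9 CPM and 31.0 to 62.2 CPM.

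**Figure D4:**
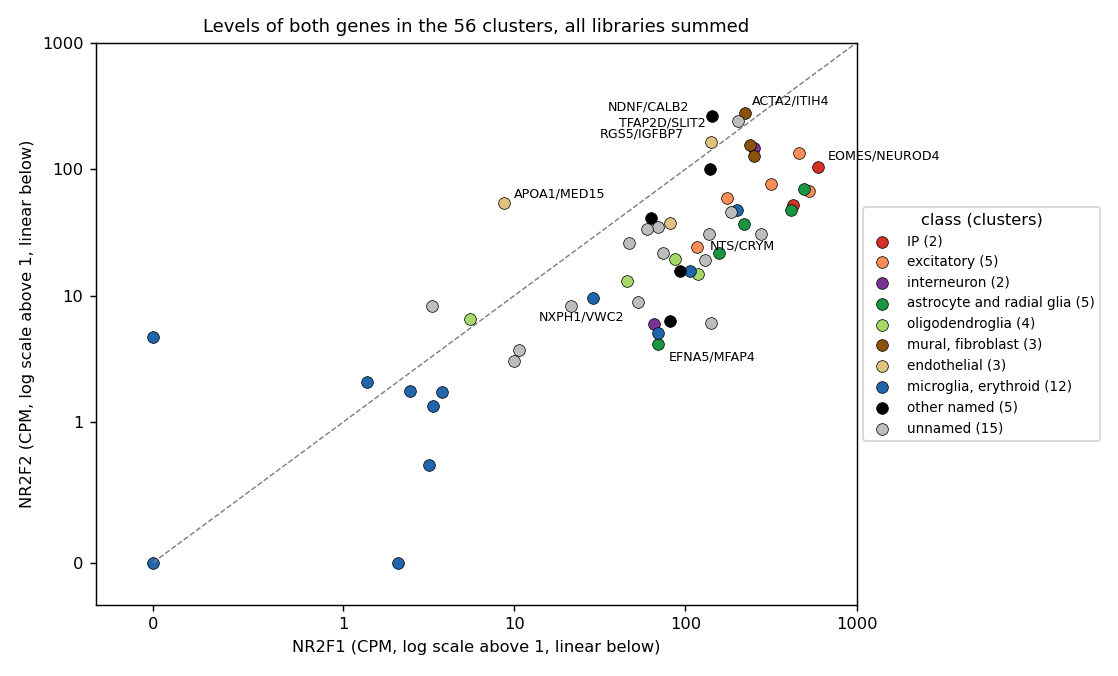
NR2F1 against NR2F2 in each of the 56 clusters, in CPM with all libraries summed, on axes logarithmic above 1 and linear below, coloured by class and labelled by leading genes, with a dashed line at equal CPM. The IP-like cluster led by EOMES lies farthest right (598 CPM of NR2F1), and the mural-like cluster led by ACTA2 (277 CPM of NR2F2) and the Cajal-Retzius-like cluster led by NDNF (263 CPM) lie at the top.

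Within the excitatory lineage NR2F1 differed by cluster. The IP-like cluster led by EOMES and NEUROD4 (587 cells) had 598 CPM over all libraries and the dividing IP-like cluster led by HIST1H2AB and CENPF (366 cells) 427 CPM. Among the excitatory-like clusters the level was 524 CPM in the cluster led by SEMA3C and RFX2, 463 CPM in that led by SSTR2 and FAM84A, 314 CPM in that led by STK32B and GCNT1, 175 CPM in that led by NEUROD6 and TUBB3 and 118 CPM in that led by NTS, CRYM and FEZF2, of which FEZF2 specifies deep-layer projection neurons. The order was nearly the same inside single libraries. In E60_3 the NEUROD6, STK32B, SSTR2 and SEMA3C clusters had 342, 496, 621 and 747 CPM. In E70_3 the NTS, NEUROD6, STK32B, SEMA3C and SSTR2 clusters had 116, 285, 355, 533 and 562 CPM. In E50_1 the NEUROD6, NTS, STK32B and SSTR2 clusters had 106, 118, 172 and 274 CPM. In E70_nc, where RNA of the cytoplasm is mostly removed, the NTS, STK32B and SEMA3C clusters had 48.2, 87.9 and 109 CPM. The NTS and NEUROD6 clusters were thus the lowest and the SSTR2 and SEMA3C clusters, which share SEMA3C among their leading genes, the highest in the libraries that held them. NR2F2 was also low in the NTS cluster, 19.7 CPM in E50_1 and 28.8 CPM in E70_3, against 157 and 81.4 CPM in the SSTR2 cluster of the same libraries. Clusters were made from the same cells, and no test was run between them.

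The study assigned interneuron clusters to the CGE by both genes, beside NDNF in some. It assigned others to the MGE by SST or by LHX6 and SOX6. To see how NR2F1 and NR2F2 divide the interneurons, the 916 interneuron-like cells were clustered again. Both genes and all subtype markers were kept out of the variable genes. NR2F2 had 0 UMIs in the LHX6-type subcluster led by KCNN2 and NPY (188 cells, 1058312 UMIs, which allows up to 2.83 CPM), 2.79 CPM in the LHX6-type subcluster led by CORT and CDH9 (135 cells) and 22.3 CPM in that led by POSTN and PROKR2 (114 cells). It was 153 CPM in the CGE-type subcluster led by SORCS3, NR3C2, ADARB2 and VIP (124 cells). The LHX6-type subclusters had 48.2, 78.0 and 89.0 CPM of NR2F1 and the CGE-type subcluster 170.0 CPM. The highest NR2F2 of all, 238 CPM, was in a subcluster of 180 cells that the rule left unnamed, led by SHISA9, NMBR and TM4SF1, where NR2F2 itself was the fourth of the leading genes. No marker list, that of the CGE included, fitted this subcluster well enough to name it. Of single genes it had 112 CPM of PROX1 and 147 CPM of ADARB2, both of the CGE list, and 7.56 CPM of LHX6. These were picked after the subcluster was seen, and the other genes of the CGE list are not given here. They therefore do not make the subcluster CGE-type. Its NR2F1 was 311 CPM. In E60_3 its levels were 357 CPM of NR2F1 and 283 CPM of NR2F2, and in E70_3 430.3 and 272 CPM. The remaining unnamed subclusters, led by SLC17A6 and NRP1 (75 cells, median of 10727 UMIs), by CXCL14 and TFAP2B (74 cells) and by CRH and RSPO2 (26 cells), had 321, 131 and 179 CPM of NR2F1 and 79.6, 49.3 and 219 CPM of NR2F2. SLC17A6, a glutamate transporter of synaptic vesicles, is a gene of excitatory neurons, and whether the first of these holds doublets was not tested. The leading genes of the CXCL14 subcluster include PAX6 and SIX6, and SIX6 is also a leading gene of the photoreceptor-like cluster.

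**Figure D5:**
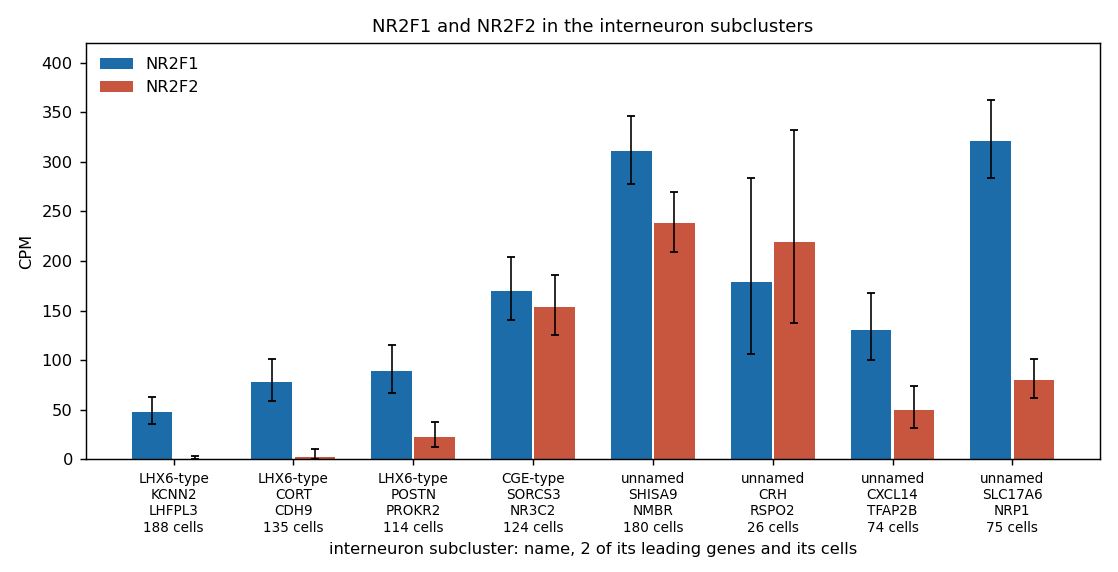
Bars give NR2F1 and NR2F2 in CPM in the 8 subclusters of the interneuron-like cells, all libraries summed, with exact Poisson 95% intervals as error bars. NR2F2 was 0 to 22.3 CPM in the 3 LHX6-type subclusters and 153 CPM in the CGE-type subcluster, where NR2F1 was 48.2 to 89.0 and 170.0 CPM.

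By library the CGE-type cells had 199.6 CPM of NR2F2 in E60_3 and 164 CPM in E70_3, and 66.9 CPM in E70_nc. The LHX6-type cells had 14.3 CPM in E60_3, 4.98 CPM in E70_3 and 0 UMIs in E70_1, E70_2 and E70_nc, which allow up to 13.5, 6.64 and 33.8 CPM. NR2F1 was 247, 219 and 22.3 CPM in the CGE-type cells of E60_3, E70_3 and E70_nc and 96.2, 35.9, 31.0, 79.7 and 11.3 CPM in the LHX6-type cells of E60_3, E70_1, E70_2, E70_3 and E70_nc. In whole cells the comparison of the 2 types called 7.07% of genes. The difference was 4.16 ± 0.39 (log2; edgeR, adjusted p = 2.37e-16) for NR2F2 and 1.36 ± 0.25 (adjusted p = 1.20e-05) for NR2F1. Only E60_3 and E70_3 held both types with at least 20 cells, so these values rest on 2 libraries, 6 sums and 1 residual degree of freedom. The NR2F1 call was lost under DESeq2 (1.39, adjusted p = 0.261) and when DLX-positive cells were split by an LHX6 UMI in place of clusters (0.73, adjusted p = 0.168), and the NR2F2 call was kept in both.

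The share of cells with a UMI depends on depth, so each cell was thinned to 1000 UMIs, which left out 1987 shallower cells. NR2F1 was then found in 37.5% of IP-like, 24.985% of excitatory-like, 16.3% of astrocyte and radial glia-like, 19.6% of mural-like and 13.3% of interneuron-like cells, against 3.06% of microglia-like and 1.49% of erythroid-like cells. Unthinned, the shares were 91.4%, 77.3%, 53.6%, 64.3% and 40.9%, against 11.4% of microglia-like cells (median of 5091 UMIs) and 8.72% of erythroid-like cells (median of 5160.5 UMIs), at medians of 7758, 7531, 5234, 5858 and 5635.5 UMIs. NR2F2 was found after thinning in 23.2% of mural-like, 21.4% of Cajal-Retzius-like, 7.49% of interneuron-like, 7.04% of IP-like, 6.46% of excitatory-like and 6.37% of endothelial-like cells, against 0.818% of microglia-like and 0.172% of erythroid-like cells. The shares of oligodendroglia-like cells, 5.06% for NR2F1 and 1.24% for NR2F2, were nearer to those of microglia-like cells. Of thinned interneuron-like cells 2.53% (23 of 908, exact Clopper-Pearson 95% interval 1.61 to 3.78%) had a UMI of both genes, where the product of the single shares was 0.998%. These cells come from libraries of unlike level. Within E60_3 the share with both was 5.26% (2.83 to 8.83%) against a product of 2.85%, and within E70_3 it was 2.82% (1.30 to 5.29%) against 1.38%, so the product lay inside the interval in either library. Over all libraries the share with both was 1.95% (1.59 to 2.38%) against 1.61% in excitatory-like, 2.73% (1.79 to 3.98%) against 2.64% in IP-like, 0.649% (0.420 to 0.957%) against 0.409% in astrocyte and radial glia-like, 0.668% (0.356 to 1.14%) against 0.298% in endothelial-like and 6.55% (4.15 to 9.75%) against 4.56% in mural-like cells. Summed over libraries it was above the product in all 6 of these classes, but the sums join libraries of unlike level. Within single libraries it lay above the product in some and below it in others, in each class. In excitatory-like cells, for example, it was 4.77% against 4.32% in E60_3 and 0.724% against 0.841% in E50_1. No test was run, since cells of a library are not replicates.

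E60_3 and E70_3, which bear the same library number in the study's sample table, read here as a shared sequencing pool, were above all other fetal whole-cell libraries for NR2F1 in excitatory-like, IP-like, interneuron-like, astrocyte and radial glia-like and endothelial-like cells. The lower of the pair exceeded the highest other library 1.61-fold in excitatory-like cells, where 17.9% of genes also had both libraries on top and 1.53% by at least as much. The ratio was 1.71 in IP-like cells (18.9% of genes on top, 2.14% by at least as much), 2.70 in interneuron-like cells (15.9% and 0.150%), 2.37 in astrocyte and radial glia-like cells (17.8% and 0.887%) and 1.68 in endothelial-like cells (29.3% and 7.13%). In microglia-like and erythroid-like cells, where 14.9% and 0.249% of genes had the pair on top, NR2F1 did not. For NR2F2 the ratio was 1.49 in interneuron-like cells, with 2.53% of genes at least as far apart, 1.07 in those of astrocytes and radial glia and 1.00 in endothelial-like cells. In excitatory-like and IP-like cells the pair was not on top for NR2F2, with ratios of 0.828 and 0.652. The pair was noticed in these data, no test was run on it, and since the libraries also differ in the brains they hold, pool and animal cannot be told apart.

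Between E60 and E70 no difference of either gene passed the edgeR test with all libraries, although in microglia-like cells some alternatives called one. Over all cells of the 3 whole-cell libraries of each stage the E70 minus E60 difference was -0.38 ± 0.71 (log2; edgeR, adjusted p = 0.723) for NR2F1 and -0.81 ± 0.48 (adjusted p = 0.273) for NR2F2, in a comparison that called 0.00% of 16743 genes (0 genes, with 4916 at an unadjusted p under 0.05 and 2833 called by DESeq2), and without E60_3 the NR2F1 difference was 0.67. For astrocyte and radial glia-like cells it was -0.10 ± 0.72 (adjusted p = 0.961) and -0.22 ± 0.89 (adjusted p = 0.932), also with 0.00% called (0 of 13760 genes, 1090 at an unadjusted p under 0.05, 191 by DESeq2), and it turned to 0.74 and 0.71 without E60_3 and to 0.43 and 0.36 without E70_2. In microglia-like cells, with 0.00% called (0 of 11481 genes, 2009 at an unadjusted p under 0.05, 724 by DESeq2), the difference was -3.44 ± 0.95 (adjusted p = 0.111) for NR2F1 and -3.88 ± 0.99 (adjusted p = 0.0980) for NR2F2. All 3 E60 libraries were above all 3 E70 libraries there for both genes, as the values above show. An exact permutation test gave p = 0.1, the smallest that 3 against 3 allow. The share of all 11481 genes with the stages apart in this way is not given here. The separation is therefore not shown to be particular to either gene. Without E70_3 the other E70 libraries had 0 UMIs of NR2F1 in these cells, and the fitted difference passed the test (edgeR, adjusted p = 0.0245), with a size that is no bound. The NR2F2 difference there passed under DESeq2 (-3.82, adjusted p = 0.0263) and without the count filter (edgeR, adjusted p = 0.0478), and it turned to 1.17 (adjusted p = 0.580) with clusters made in each library. Of the microglia-like cluster led by FOLR1 and C1QB, 262 and 226 of 494 cells came from E60_1 and E60_2, and of that led by CXCL10 and TYROBP, 115, 77 and 35 of 274 cells came from E60_1, E60_2 and E60_3. These clusters hold markers of other classes, and their part in the difference was not tested.

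Other genes of the COUP-TF pathway were followed by lists. Of 10 relatives and heterodimer partners, 1 was higher and 0 lower in interneuron-like than in excitatory-like cells (3.93% of all genes called), the retinoic acid receptor RARA (1.00 ± 0.28, log2; edgeR, adjusted p = 0.0225), and the median over the list was -0.03 against -0.11 over all genes. In IP-like against excitatory-like cells 2 were higher and 1 lower, where 19.1% of all genes were called. NR2E1, the progenitor receptor also called tailless, was higher by 2.73 ± 0.37, the retinoid X receptor RXRA was higher by 1.59 ± 0.50 and RARB was lower, at -0.76 ± 0.28. In endothelial-like against microglia-like cells, where 37.3% of all genes were called, 4 were higher and 1 lower, RARB by 1.67 ± 0.26, RARA by 1.26 ± 0.25, NR2C2 by 0.57 ± 0.18 and, in the other direction, RXRA by -1.25 ± 0.30. In mural-like against microglia-like cells (20.2% of all genes called) RARB was higher by 2.499 ± 0.364 and RXRA lower, at -1.80 ± 0.50. RXRA, whose product pairs with retinoic acid receptors, was below the microglia-like level in all 6 classes set against it, from -4.74 in interneuron-like to -1.25 in endothelial-like cells.

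Of 10 cofactors and binding partners, 0 differed between interneuron-like and excitatory-like cells in the test (edgeR), and in IP-like cells BCL11A, whose product binds COUP-TFs, was lower than in excitatory-like cells, at -1.61 ± 0.39 (log2; adjusted p = 0.00185). BCL11A was also lower in CGE-type than in LHX6-type interneurons (-1.13 ± 0.21), as was the coactivator NCOA2 (-0.69 ± 0.19), and 7 of the 9 cofactors tested did not pass there. ZFPM2, also called FOG2 and a partner of NR2F2, was higher than in microglia-like cells by 2.12 ± 0.30 in endothelial-like, by 1.52 ± 0.35 in mural-like and by 1.21 ± 0.29 in astrocyte and radial glia-like cells. Of 6 area patterning genes 4 were tested between classes. PAX6 was higher in interneuron-like than in excitatory-like cells (2.95 ± 0.54), while LHX2 (-2.71 ± 0.45), EMX2 (-1.95 ± 0.56) and EMX1 (-1.44 ± 0.43), all genes of the cortical primordium, were lower there, as NR2F1 was. EMX1 also names the excitatory-like class and PAX6 the IP-like class. In interneuron-like cells PAX6 ranged from 15.8 to 427 CPM over the fetal whole-cell libraries, and it was a leading gene of the unnamed CXCL14 subcluster. PAX6 and EMX2 were higher in IP-like than in excitatory-like cells (3.67 ± 0.53 and 2.21 ± 0.40), and all 4 were higher in astrocyte and radial glia-like than in microglia-like cells.

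Of 16 genes of interneuron migration and the CGE, 13 were tested between classes. In interneuron-like against excitatory-like cells 8 were higher, among them DLX5 (6.69 ± 0.48) and the chemokine receptor CXCR4 (5.49 ± 0.39), 1 was lower, the semaphorin receptor NRP1 (-2.46 ± 0.36), and 4 did not pass, with a median of 2.97 against -0.11 over all genes (log2; edgeR) and 3.93% of all genes called. The DLX genes also name the class, so this count is no independent result. In CGE-type against LHX6-type cells 6 of 12 were higher and 2 lower, where 7.07% of all genes were called. ADARB2 (3.12 ± 0.24) and PROX1 (2.14 ± 0.41), which also define the subtype, and DLX1 (0.95 ± 0.18) were higher, as NR2F1 and NR2F2 were, and CXCR4 (-2.44 ± 0.22) and the Slit receptor ROBO1 (-1.98 ± 0.31) were lower. Of 13 genes of veins and arteries 12 were tested, and all 12 were higher in endothelial-like than in microglia-like cells, with a median of 3.00 against -0.02 over all genes, of which 37.3% were called in either direction. They include the venous gene APLNR (8.38 ± 0.43) and the arterial genes DLL4 (5.23 ± 0.42) and NOTCH4 (4.47 ± 0.36), so the class held genes of both vessel types beside NR2F2. In mural-like cells, where 20.2% of all genes were called, 4 were higher and 1 lower, with the Notch target HEY2 at 3.91 ± 0.41, APLNR at 3.48 ± 0.67, EPHB4 at 1.38 ± 0.36 and NRP2 at -1.48 ± 0.48.

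The genes whose level over 73 sums of class and library was most like that of NR2F1 were ST7 (Pearson r = 0.741 of log2(CPM + 1)), IFT57 (0.732), NR2F2 (0.730), DSTN (0.727) and GPC1 (0.717), among 13095 genes with a mean of at least 5 CPM. Those most like NR2F2 were GUCY1B1 (0.815), a subunit of the nitric oxide receptor of smooth muscle, NR2F1 (0.730), AMOTL2 (0.726), ADAM19 (0.725) and CDH11 (0.724). Each gene was thus among the 5 closest to the other. The sums share libraries and depth, so these correlations describe the 73 points and carry no test.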

How the data were processed

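The authors deposited 1 table of raw UMI counts per library, made with Cell Ranger (given as 2.20 in their processing notes) on Sscrofa11.1, with introns included and its default cell calling. These counts were used without other columns, and 987 gene IDs without a symbol took one from a reference table. Per-library scaling to 10000, 3000 variable genes without the members and markers, 50 principal components, the steps of FastMNN and Louvain clustering at resolution 1.6 (1.4 for interneurons, with 1000 variable genes) gave the clusters (scanpy 1.11.5). A cluster took the name of its best marker list with a score of at least 0.75 or at least 2 own markers among 50 leading genes. Doublets were kept. Scrublet called 183 of 28229 cells and 0 in E60_1 and E60_2, so it has not worked there.

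Summed counts of classes with at least 20 cells were tested in edgeR 4.0.16 (quasi-likelihood, TMM, library as a block, 60 sums of the 7 fetal whole-cell libraries, 15818 genes, R 4.3.3), the subtypes and stages likewise, with p-values adjusted over all genes at a threshold of 0.05. DESeq2 1.42.0 was the alternative. Exact tests and intervals (95%) used scipy 1.17.1. A count of 0 allows up to 3 UMIs. Scripts were tested on simulated data. The members and lists were chosen with earlier results of these data known. From each list the text names, per comparison, the 3 genes with the smallest adjusted p under 0.05 in each direction, of which not all are printed (results for some genes are not reported here), and for likeness the 5 genes with the highest correlation. Clusters and markers named beside them were chosen after their values were seen. Same-numbered E60 and E70 libraries deviated together with correlations of -0.130, 0.0456 and -0.0734 over 12937 genes, so the numbers do not pair them. The depth of each library sets how few UMIs a small class gives.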

Additional observations from a re-analysis of the deposited data

Results flagged for a closer look

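Each gene was also high in some clusters outside the named classes, above its highest microglia-like level of any library (236 CPM for NR2F1 and 41.97 CPM for NR2F2, both in E60_3). In none of the clusters given next were both genes above these levels. In the unnamed cluster led by KCNIP3, CRYAB and EGFR, 858 cells of which 46.7% came from E70_3, NR2F1 was 277 CPM on 1757 UMIs and NR2F2 30.7 CPM. In the unnamed cluster led by TFAP2D, SLIT2 and SEMA3D, 205 cells of which 99.5% came from E50_1, NR2F2 was 239 CPM on 385 UMIs, rank 3 among the 56 clusters, and NR2F1 was 203 CPM. In the unnamed cluster led by TTR and WDR49, 774 cells of which 96.6% came from E60_1, NR2F2 was 45.8 CPM on 267 UMIs and NR2F1 184 CPM. TTR is a gene of the choroid plexus, while RSPH1, DNAH12 and SPAG17, also among the leading genes of this cluster, are genes of motile cilia. This cluster and that of TFAP2D each came almost wholly from 1 library, so cluster and library cannot be told apart there.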

How the results depend on the processing

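Of the class comparisons, NR2F1 in excitatory-like, astrocyte and radial glia-like and mural-like cells and NR2F2 in interneuron-like, excitatory-like, endothelial-like and mural-like cells, each against microglia-like cells, kept direction under each alternative run and the call under each but the exact permutation test, whose smallest p over 5 libraries is 0.0625 and over the 3 with mural-like cells 0.25. NR2F1 in the class of astrocytes and radial glia, with 6 libraries, passed that test too. The NR2F1 difference between interneuron-like and excitatory-like cells kept its direction in all 20 alternatives and lost its call in 13, and the exact permutation test over 5 libraries could not pass. It was -1.13 with DESeq2, -1.11 with RLE size factors, -1.21 with all 10 libraries, -1.10 without the library block, -1.20 without Scrublet doublets, -1.39 with clusters of each library, -0.94 with cells gated on marker UMIs and -1.14 with each cluster named by its best list (log2, adjusted p 0.0669 to 1). The cause was not tested for any change below.

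Calls were lost without the library block for NR2F1 in interneuron-like (1.08) and oligodendroglia-like cells (0.81) and NR2F2 in astrocyte and radial glia-like cells (1.23; clusters of each library 0.80; exact permutation test 1.99), each against microglia-like cells. Calls were gained for NR2F2 in oligodendroglia-like cells with gated cells (2.33) or with clusters that hold markers of another class left out (2.67), and for NR2F1 in endothelial-like cells with all 10 libraries (1.08), without Scrublet doublets (0.93), with clusters of each library (1.12) or with those clusters left out (1.86). Leaving those clusters out takes away most microglia-like UMIs of both genes, so gains by that step are no independent result. For CGE-type against LHX6-type cells NR2F1 was 1.39 with DESeq2 and 0.73 with DLX cells split by LHX6. For NR2F2 in microglia-like cells, E70 minus E60 was -3.82 with DESeq2, -3.93 without the count filter, both called, and 1.17 with clusters of each library. Signs also turned for NR2F2 in interneuron-like against excitatory-like (-0.13, clusters of each library) and IP-like against excitatory-like cells (0.14, gated), for the stage difference in all cells within E60_1 and E70_1, whose shared library number is read as a sequencing pool (0.27 for NR2F1 and 0.20 for NR2F2) and for NR2F1 between stages by the exact permutation test over the libraries of astrocyte and radial glia-like cells (0.0500041).

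Leaving out 1 library each gave, for NR2F1 and NR2F2, -1.36 to -1.01 and 0.11 to 0.53 (interneuron-like against excitatory-like), 0.51 to 0.70 and -0.20 to -0.02 (IP-like against excitatory-like), 0.99 to 1.79 and 2.18 to 2.97 (interneuron-like against microglia-like), 2.23 to 3.02 and 1.94 to 2.58 (excitatory-like), 2.14 to 2.89 and 0.95 to 1.59 (astrocyte and radial glia-like), 0.80 to 1.53 and -0.0372 to 0.68 (oligodendroglia-like), 0.52 to 1.27 and 2.89 to 3.43 (endothelial-like), 2.34 to 2.86 and 4.46 to 4.91 (mural-like), 1.36 to 1.37 and 4.17 to 4.19 (CGE-type against LHX6-type, without E70_1 or E70_2, which hold no CGE-type sum, so the narrow range says nothing of stability), -1.06 to 0.67 and -1.06 to -0.39 (stage, all cells), -1.07 to 0.74 and -1.57 to 0.71 (stage, astrocyte and radial glia-like) and -10.80 to -2.30 and -4.62 to -3.08 (stage, microglia-like). The subtypes without E60_3 or E70_3 could not be fitted for want of residual degrees of freedom, nor could the mural-like comparison without E60_1 and E60_2 together. The stage differences of interneuron-like and endothelial-like cells were not run, since a stage held fewer than 2 libraries with enough cells, and that of microglia-like cells without the clusters that hold markers of another class gave no value for either gene.

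Counts of called genes moved by over 1.5 times from 621 to between 144 (no library block) and 386 (without E60_3) for interneuron-like against excitatory-like cells, with 341 without E70_3, from 3017 to between 878 and 1921 for IP-like against excitatory-like cells, from 526 to 112 (DESeq2) and 37 (LHX6 split) for the subtypes, and from 0 to 5902 (without E60_3), 2833 (DESeq2) and 1570 (without E70_3) for the stage over all cells.

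With the replicate block, the number in the library names, the stage difference was -0.22 for NR2F1 and -0.88 for NR2F2 in all cells, -0.23 and -0.13 in astrocyte and radial glia-like cells and -4.19 and -4.13 in microglia-like cells, which changed no call. Thinning to 1000 UMIs lowered the shares with NR2F1 to 24.985% (excitatory-like), 37.5% (IP-like), 13.3% (interneuron-like), 16.3% (astrocyte and radial glia-like) and 19.6% (mural-like) and with NR2F2 to 6.46%, 7.04%, 7.49% (interneuron-like) and 23.2% (mural-like). With all UMIs the shares with both genes were 30.04% in excitatory-like and 17.8% in interneuron-like cells.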
